A study of Danio rerio with 8 samples.

Results

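Footprints of ribosomes on 6 genes that pattern the early embryo were followed at 4 hours post fertilization (hpf) in embryos of the zebrafish, Danio rerio. The genes were chrd, FGF8, WNT8A, tdgf1, gdf3 and CTNNB1. They were picked by a rule on symbols alone, but it was made with earlier results of these data known. These symbols matched 8 of the 33633 gene identifiers analysed, because FGF8 and WNT8A each stood beside a pair of identifiers in the table of gene names. Of the 8 identifiers, 6 reached a mean of 1 FPKM over the groups and were set beside the 7698 genes that did so, called the tested genes although only the size of a ratio was read. The other 2, a second FGF8 and a second WNT8A, stayed under it. FPKM divides the fragments of a gene by its transcript length and by the mapped fragments of the library. Footprints lie mostly on the coding part of a transcript, and the length is that of the transcript. Levels of different genes within a group can therefore be compared only roughly.

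The 8 samples formed 4 groups of 2. They were wild type embryos (WT), embryos of genotype Ddx3xb-/Ddx3xb- (KO), and embryos of that genotype injected with ddx3xbFL (KO_FL) or with ddx3xb△N (KO_dN), all whole embryos at 4 hpf. Ddx3xb is a DEAD-box RNA helicase, and the study asked how its absence and the injected constructs changed footprints. Each gene had 1 deposited value per group. A note in the series design text, which does not name WT among the groups, states that the processed files were each made from both replicates. No value below has a replicate error, no test was possible, and differences are described as sizes. The labels do not state what was injected, whether the mothers were mutant or how many embryos were pooled, and the samples hold no mutants injected with a control. Sample titles of the injected groups are worded in another style than those of WT and KO. They do not say whether all groups were prepared together.

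The body axes and germ layers of a fish embryo are laid down by a few secreted signals. Maternal β-catenin, encoded by ctnnb1, enters nuclei on the future dorsal side and starts the organizer, whose cells secrete Chordin, the product of chrd, to bind and block BMP ligands. Nodal signals, which induce mesoderm and endoderm, are heterodimers of a Nodal protein and Gdf3 (Vg1), and reach their receptors through the co-receptor encoded by tdgf1 (one-eyed pinhead). Wnt8a acts at the margin in ventral and lateral mesoderm, and Fgf8 is a ligand of the margin that maintains mesoderm. The transcripts of gdf3, ctnnb1 and tdgf1 are supplied by the mother, with tdgf1 also transcribed by the embryo. Those of chrd, fgf8a and wnt8a are transcribed from the embryo's own genome. The values do not show whether some of these are also maternal.

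Summed over the identifiers, FPKM came to 2050288 in WT against 364061 in KO, and to 395754 in KO_FL and 190693 in KO_dN. These sums do not stand for mRNA alone. The identifier 5_8S_rRNA made up 45.5% of the KO sum and 27.1% of the KO_dN sum. For KO_FL the highest identifier was snord29, with 13.2% of the sum, and the highest of WT held 11.8%. TPM scaling, used below as an alternative, divides by the sum and so takes in these unequal shares. As deposited, 77.5% of the tested genes were highest in WT and lowest in KO_dN. Levels are given as deposited and also as scaled FPKM, divided by a factor per group (median of ratios). The factor sets the median gene equal between groups, among 3177 genes with 1 FPKM or more in every group. Scaled levels thus assume that this median gene did not change, which was not tested. WT had a factor of 3.40, KO 0.73, KO_FL 0.90 and KO_dN 0.45. The number of reads behind a value is not known. Footprints follow both the amount of an mRNA and the ribosomes on it, and in whole embryos fewer cells of a type cannot be told apart from less RNA per cell. The blastula factors nanog, pou5f3 and sox19b were all present, with a summed level of 64.3 to 248 FPKM per group.

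The 3 maternally supplied members had the highest levels of the 6 in every group, and in the same order. gdf3, the Vg1 ligand, led with 75.0 FPKM in WT against 29.8 in KO, with 41.9 in KO_FL and 19.2 in KO_dN. CTNNB1 (β-catenin) followed with 27.2, 11.0, 15.6 and 5.95 FPKM in the same groups. Both stood highest in WT and lowest in KO_dN as deposited, the order of the summed FPKM. Scaled FPKM turned this around: gdf3 had 22.1 in WT and 40.8, 46.4 and 42.9 in KO, KO_FL and KO_dN, and CTNNB1 had 8.01 in WT and 15.0, 17.3 and 13.3. WT was thus the lowest group for both genes once scaled, and the 3 mutant groups lay close together. Between KO, KO_FL and KO_dN the level of CTNNB1 per 100 FPKM of gdf3, a ratio within a group that no scaling touches, was 36.8, 37.3 and 31.1, and in WT it was 36.3.

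tdgf1, the Nodal co-receptor, had 20.9 FPKM in WT, 3.59 in KO, then 9.15 in KO_FL and 2.28 in KO_dN. Its scaled FPKM was 6.15 in WT against 4.92 in KO, with 10.1 in KO_FL and 5.11 in KO_dN. KO_FL was therefore the highest group on the scaled values, with KO and KO_dN at nearly the same level below WT. Per 100 FPKM of gdf3, the ligand it serves, tdgf1 stood at 27.9 in WT, 12.1 in KO, then 21.9 in KO_FL and 11.9 in KO_dN.

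The members transcribed by the embryo were spread much further between groups. chrd, the BMP antagonist, had 18.5 FPKM in WT against 0.99 in KO, with 4.88 in KO_FL and 0.98 in KO_dN. As deposited KO and KO_dN were thus alike and lowest, with KO_FL between them and WT. Its scaled FPKM was 5.44, 1.36, 5.42 and 2.19 in that order, so KO_FL stood at 99.6% of WT, KO at 24.9% and KO_dN at 40.2%.

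WNT8A (ENSDARG00000052910), the Wnt ligand of the margin, had 10.8 FPKM in WT, 0.35 in KO, then 3.87 in KO_FL and 0.40 in KO_dN. Scaled values of 3.18, 0.47, 4.30 and 0.90 placed KO at 14.9%, KO_FL at 134.9% and KO_dN at 28.1% of WT. Of the 6 genes it had the largest scaled ratio between KO_FL and KO, 9.08 times with no pseudocount. FGF8 (ENSDARG00000003399) had 11.4 FPKM in WT against 0.20 in KO, with 1.31 in KO_FL and 0.14 in KO_dN. Scaled, it stood at 3.34, 0.27, 1.45 and 0.31, which is 8.14% of WT in KO, with 43.5% in KO_FL and 9.18% in KO_dN. FGF8 and WNT8A were about equal in WT and came apart in KO_FL, where WNT8A was the higher. FGF8 passed the mean of 1 FPKM through its WT level alone, and without WT 5 of the 8 identifiers did.

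**Figure D1:**
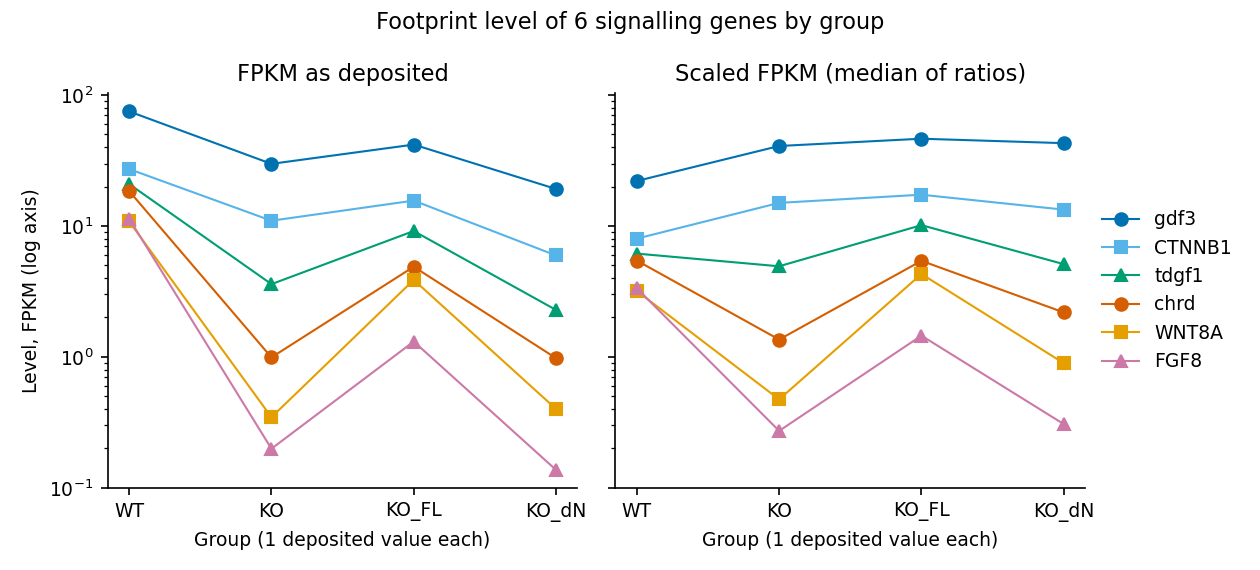
Level of the 6 genes in each group, as deposited on the left and scaled by median of ratios on the right, in FPKM on a shared log axis; each point is 1 deposited value, the lines only join the points of a gene. chrd, WNT8A and FGF8 dip in KO and KO_dN in both panels, from 5.44, 3.18 and 3.34 scaled FPKM in WT to 1.36, 0.47 and 0.27 in KO, while gdf3 and CTNNB1 are lowest in WT once scaled.

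The 2 identifiers under the filter were nearly silent. The second FGF8 (ENSDARG00000039615) had a level of 0.14 FPKM in WT, 0.044 in KO, and was listed at 0 in KO_FL and KO_dN. The second WNT8A (ENSDARG00000078507) had 0.0045 FPKM in WT, 0.042 in KO, then 0.33 in KO_FL and 1.94e-12 in KO_dN. RefSeq's annotation of the assembly GRCz12tu lists wnt8a and a companion gene, wnt8-2, over an identical span, and the sources used here do not say how fragments were shared between overlapping transcripts. The WNT8A values are therefore uncertain as to which of these genes they count.

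Ranks by FPKM within a group are changed by no scaling, but the number of genes at 1 FPKM or more ran from 3458 in KO_dN to 10889 in WT, so a rank does not stand for the same level in each group. Among 33633 identifiers, with rank 1 the highest, chrd was at rank 2043 in WT against 4941 in KO, with 1714 in KO_FL and 3520 in KO_dN. WNT8A was at rank 3142 in WT, 8305 in KO, then 2097 in KO_FL and 6304 in KO_dN. Both thus ranked lowest in KO and, in KO_FL, above their place in WT. FGF8 was at 3039 in WT against 10131 in KO, with 4677 in KO_FL and 10005 in KO_dN, so in no mutant group did it return to its WT rank. gdf3 was at 639 in WT and between 370 and 378 in the mutant groups, CTNNB1 at 1471 and between 704 and 782. tdgf1 was at 1846 in WT, 1830 in KO, then 1030 in KO_FL and 1701 in KO_dN, so its ranks did not place KO and KO_dN below WT as its scaled FPKM did.

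The sum of chrd, FGF8 and WNT8A was also set against the sum of gdf3, CTNNB1 and tdgf1 in the same group. This split, by the supply named above, was made after the values had been seen. Per 100 FPKM of the maternally supplied genes there were 33.0 FPKM of the others in WT, 3.46 in KO, and 15.1 in KO_FL and 5.52 in KO_dN. The ratio in WT was 9.55 times that in KO and 2.19 times that in KO_FL, and in KO_FL it was 2.74 times that in KO_dN. KO_dN exceeded KO by 1.60 times. From the highest to the lowest member, gdf3 to WNT8A in WT and gdf3 to FGF8 elsewhere, levels spanned 6.93 times in WT against 150.1 in KO, 32.0 in KO_FL and 140.0 in KO_dN.

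**Figure D2:**
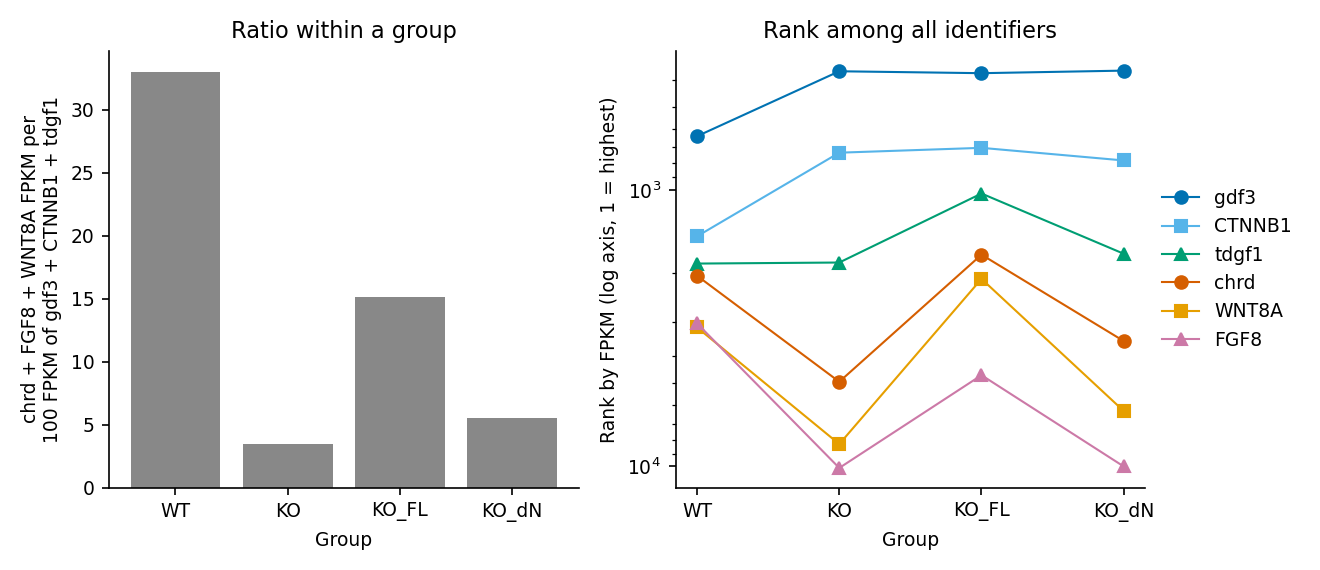
Left, FPKM of chrd, FGF8 and WNT8A per 100 FPKM of gdf3, CTNNB1 and tdgf1 in each group, 33.0 in WT against 3.46 in KO, with 15.1 in KO_FL and 5.52 in KO_dN; right, rank of each gene by FPKM among 33633 identifiers on a log axis with the highest levels at the top. Each bar and point is 1 deposited value per group; chrd, WNT8A and FGF8 drop to ranks 4941, 8305 and 10131 in KO.

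KO was compared with WT to see what differed in the mutant. Log2 ratios are log2((a + 1)/(b + 1)) of scaled FPKM, and at least 2-fold means a log2 ratio of 1 or more in size. The scaled log2 ratios were -1.77 for FGF8, -1.51 for WNT8A, -1.45 for chrd, -0.27 for tdgf1, 0.83 for CTNNB1 and 0.86 for gdf3, where the median of all tested genes was -0.30. Of the 6 genes, 3 were at least 2-fold lower, beside 20.3% of all tested genes, and 0 higher, beside 9.37%. The filter leans on WT, whose FPKM are the highest, and so takes in genes high in WT, FGF8 among them. As deposited, all 6 were at least 2-fold lower, as were 83.1% of all tested genes, so gdf3 and CTNNB1 changed direction with the scale at -1.30 and -1.24. FGF8, chrd and WNT8A were the lowest of the 6 on both scales.

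KO_FL was compared with KO to see what differed after ddx3xbFL was injected. The scaled log2 ratios were 1.85 for WNT8A, 1.45 for chrd, 0.95 for FGF8, 0.91 for tdgf1, 0.19 for CTNNB1 and 0.18 for gdf3, with a median of 0.00 over all tested genes. WNT8A and chrd were at least 2-fold higher, beside 4.66% of all tested genes, and 0 of the 6 were lower, beside 3.16%. FGF8 and tdgf1 lay just inside the threshold. WNT8A exceeded 98.3% of the tested genes in this ratio, chrd 97.5%, FGF8 94.9% and tdgf1 94.5%. With the scaling factors and the filter taken without WT, WNT8A stood at 1.55, chrd at 1.27 and tdgf1 at 0.86. Under that setting 6.27% of the genes tested were at least 2-fold higher. WNT8A and chrd passed that filter only through KO_FL, so a higher level in KO_FL was built in. With a pseudocount of 0.1 the ratios were 2.94 for WNT8A, 2.06 for FGF8, 1.92 for chrd and 1.03 for tdgf1.

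In KO_dN against KO, the same question for ddx3xb△N, the scaled log2 ratios ran from -0.16 for CTNNB1 to 0.44 for chrd, with WNT8A at 0.36, gdf3 at 0.07, tdgf1 at 0.05 and FGF8 at 0.04. None of the 6 was 2-fold apart, beside 2.51% of all tested genes higher and 1.87% lower. As deposited chrd stood at -0.01, FGF8 at -0.08, tdgf1 at -0.49 and gdf3 at -0.61, so their direction depended on the scale. These ratios share the KO values with the comparisons of KO with WT and of KO_FL with KO.

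KO_FL set directly against KO_dN, without KO, gave 1.48 for WNT8A, 1.01 for chrd, 0.91 for FGF8, 0.87 for tdgf1, 0.36 for CTNNB1 and 0.11 for gdf3. WNT8A and chrd were at least 2-fold higher with ddx3xbFL, beside 4.59% of all tested genes, and none was lower, beside 3.77%. As deposited all 6 were at least 2-fold higher, beside 19.2% of tested genes. With the scaling factors and the filter taken without WT, chrd stood at 0.89 and WNT8A alone of the 5 members tested was past 2-fold. Both passed that filter only through KO_FL, so a higher level in KO_FL was built in. In KO and KO_dN, WNT8A had 0.35 and 0.40 FPKM and chrd 0.99 and 0.98.

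Against WT, the injected groups differed in which members lay apart. In KO_FL the scaled log2 ratios to WT were 1.04 for gdf3, 1.03 for CTNNB1, 0.64 for tdgf1, 0.34 for WNT8A, 0.00 for chrd and -0.82 for FGF8. Here 2 of 6 were at least 2-fold higher, beside 7.98% of tested genes, and 0 lower, beside 16.3%. As deposited gdf3 and CTNNB1 turned to -0.83 and -0.76, and 4 of 6 genes were at least 2-fold lower, beside 79.3% of tested genes. In KO_dN the ratios to WT were -1.73 for FGF8, -1.14 for WNT8A, -1.01 for chrd, -0.23 for tdgf1, 0.67 for CTNNB1 and 0.93 for gdf3. Of these, 3 were at least 2-fold lower, beside 21.6% of tested genes, and 0 higher, beside 9.55%. FGF8 is among the lower genes, but it passed the filter through WT alone, so a level below WT was built in. As deposited 6 were lower, beside 90.2%. These comparisons share the WT values with that of KO, so they are not separate evidence on WT.

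**Figure D3:**
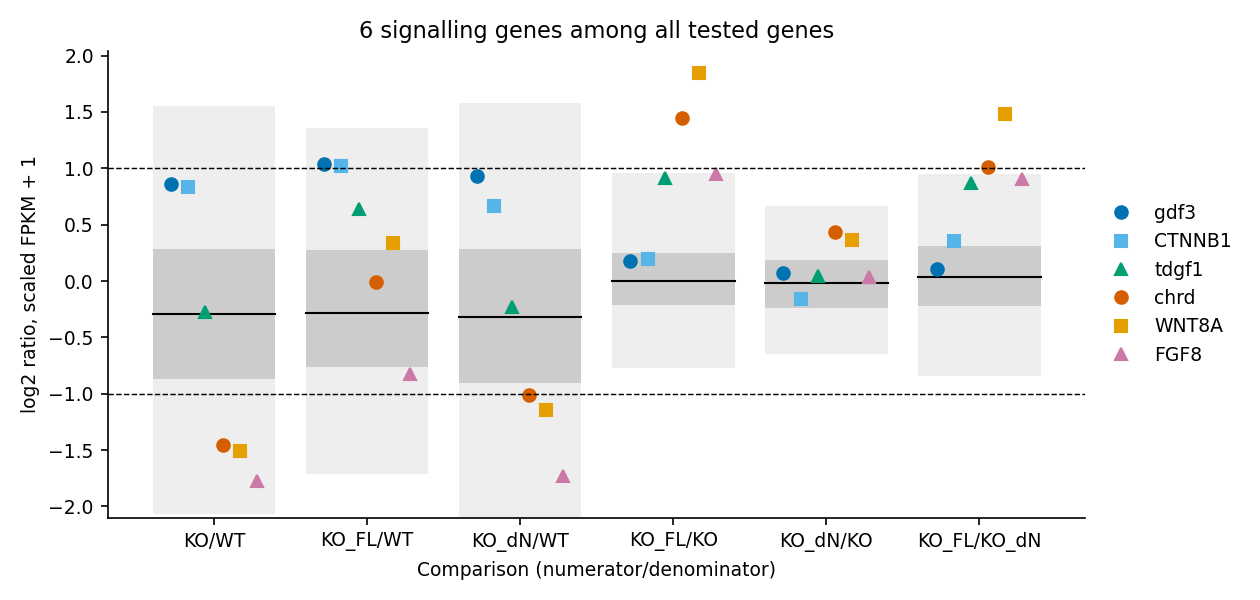
Log2 ratio of scaled FPKM (pseudocount 1) of the 6 genes in 6 comparisons; light bars span the 5th to 95th percentile and dark bars the quartiles of the 7698 tested genes, with a line at their median, and dashed lines mark 2-fold. WNT8A and chrd lie above the light bar in KO_FL/KO at 1.85 and 1.45, and the 6 genes lie between -0.16 and 0.44 in KO_dN/KO.

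The other genes of each pathway were read from lists chosen by known role. In the Nodal list 13 of 18 identifiers were tested. In KO against WT 2 were at least 2-fold higher, beside 9.37% of all tested genes, and 1 lower, beside 20.3%, with a median of 0.18. Without WT 10 of the 13 would have passed the filter. Both higher ones were identifiers of ACVR1B, a type I Nodal receptor, of which ENSDARG00000018968 had 3.90 FPKM in KO against 5.05 in WT (1.35). As deposited 0 of the 13 were higher, beside 2.48% of all tested genes, and 10 were lower, beside 83.1%. dact2, known to promote the breakdown of Nodal receptors, was lowest with 10.1 and 0.42 FPKM (-1.33), but passed the filter through WT alone. SMAD2 was the transducer with the highest mean level, with 90.2 FPKM in WT, 16.6 in KO, then 11.9 in KO_FL and 12.1 in KO_dN. It was also the lowest of the list in KO_FL against KO (-0.75), where tdgf1 was the highest. None of the 13 was past 2-fold there, beside 4.66% of all tested genes higher and 3.16% lower. ACVR2B, a type II receptor, had 16.1, 7.26, 6.88 and 4.19 FPKM, and TGIF1, a corepressor of Smad2, 19.5, 4.83, 7.27 and 2.43. ACVR2A, another type II receptor, had the highest ratio of KO_dN to KO in the list, at 0.50.

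The BMP list holds the ligands that Chordin binds, and part of the low level of its tested genes in KO is built in by the filter. Of 28 identifiers 11 were tested, and in KO against WT they had a median of -1.17. At least 2-fold lower were 7, beside 20.3% of all tested genes, and 1 was higher, beside 9.37%. Without WT 7 of the 11 would have passed the filter, and BMPR2, acvr1l, SMAD5 and chrd were the lower ones among these. The 3 tested ligands passed it through WT alone, so that a level below WT was built in: BMP2 (ENSDARG00000041430) had 10.4 FPKM in WT and 0.24 in KO, admp, an organizer BMP, 11.7 and 0.60, and bmp7a 5.38 and 0.13. BMPR2 (ENSDARG00000011941), a type II receptor, was lowest with 24.5 and 0.37 FPKM (-2.44), and acvr1l, a type I BMP receptor, had 26.4 and 1.56. SMAD5, the transducer, had 122.6 and 11.3 FPKM (-1.17). The inhibitory SMAD7 had 1.28 FPKM in WT and 2.63 in KO (1.74), the 1 gene of the list that was higher, and was the lowest of the list in KO_FL against KO (-0.65). BMP1, of the protease family that cleaves Chordin, had 3.09 FPKM in WT, 1.14 in KO, then 1.58 in KO_FL and 0.75 in KO_dN, with a scaled ratio of KO to WT of 0.42. With TPM scaling 5 of 11 were lower, beside 14.4% of all tested genes, and the median was -0.96. Without the filter 7 of 28 were lower, beside 4.69% of all identifiers, and the median was -0.06.

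In KO_FL against KO 3 of the 11 BMP genes stood at least 2-fold higher, beside 4.66% of all tested genes. None was lower, beside 3.16%, and the median was 0.56. chrd was highest. BAMBI, a pseudoreceptor that blocks BMP signalling, passed the filter through WT alone and had 1.89 FPKM against 0.31 (1.12). BMPR2 had 1.84 FPKM in KO_FL and 1.32 in KO_dN against 0.37 in KO, so it was the highest of the list in KO_dN against KO (1.38), where the median was 0.25 and BMPR1A, a type I receptor, was lowest (-0.29). The tested ligands had smaller ratios than chrd: the scaled ratios of KO_FL to KO were 0.56 for BMP2, 0.60 for bmp7a and 0.30 for admp. Against WT in KO_FL they stood at -1.04, -0.53 and -0.98, where chrd was at 0.00.

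Of the FGF list 16 of 27 identifiers were tested, and in KO against WT 2 were at least 2-fold lower, beside 20.3% of all tested genes, and 1 higher, beside 9.37%, with a median of -0.24. Without WT 12 of the 16 would have passed the filter. As deposited 0 of the 16 were higher, beside 2.48% of all tested genes, and 13 were lower, beside 83.1%. FGF8 was the lowest, followed by fgfr4, an FGF receptor, with 7.62 FPKM in WT and 0.26 in KO (-1.25), and both passed through WT alone. etv5a, an ETS transcription factor linked to FGF signalling, was the highest with 11.7 and 7.44 FPKM (1.33). FGFR1 (ENSDARG00000011027), the FGF receptor with the highest mean over the groups, had 7.44 and 2.12 FPKM (0.29), and DUSP6, a phosphatase that dampens ERK, 3.53 and 1.28 (0.43). In KO_FL against KO, grb2b, an adaptor of receptor kinases, was highest with 4.69 against 1.34 FPKM (1.13), and etv5a lowest with 4.57 against 7.44 (-0.88). In KO_dN against KO ETV4, another ETS factor, was the highest with 1.46 against 0.70 FPKM (1.13).

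Of the Wnt list 23 of 48 identifiers were tested, with 5 at least 2-fold higher in KO against WT, beside 9.37% of all tested genes, and 4 lower, beside 20.3%, and a median of 0.08. Without WT 20 of the 23 would have passed the filter. As deposited 0 of the 23 were higher, beside 2.48% of all tested genes, and 18 were lower, beside 83.1%. The spread was the widest of these lists. SFRP1 (ENSDARG00000035521), a secreted Wnt antagonist, had 33.5 FPKM in WT against 0.46 in KO, with 4.80 in KO_FL and 0.18 in KO_dN, and was the lowest in KO against WT (-2.73) and the highest in KO_FL against KO (1.95). FZD7 (ENSDARG00000027589), the receptor of the list with the highest mean level, had 93.5, 4.51, 8.44 and 2.50 FPKM. ctbp1, a transcriptional corepressor, had 21.1, 21.9, 19.3 and 10.5 FPKM and the highest ratio of KO to WT (2.11). ctnnb2, the second β-catenin gene and known as maternal in dorsal specification, had 23.6, 14.3, 16.2 and 8.67 FPKM, with scaled ratios to WT of 1.37 in KO, 1.26 in KO_FL and 1.36 in KO_dN. In ratio to WT both β-catenin genes lay above the median of all tested genes in all 3 mutant groups, scaled and as deposited. In KO_FL against KO 2 of 23 were at least 2-fold higher, WNT8A and SFRP1, beside 4.66% of all tested genes. None was lower, beside 3.16%, and the median was -0.09. CSNK1A1, a kinase that primes β-catenin for breakdown, was lowest (-0.59).

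Transcription factors downstream of these signals were read as well, with 6 of 12 tested. In KO against WT 3 were at least 2-fold lower, beside 20.3% of all tested genes, and 0 higher, beside 9.37%, with a median of -0.92. Without WT 3 of the 6 would have passed the filter. tbx16, of the mesoderm, was lowest (-2.18), and mixl1, a Nodal target of the mesendoderm that passed the filter through WT alone, had 5.34 FPKM in WT, 0.052 in KO, then 0.79 in KO_FL and 0.024 in KO_dN. EOMES, which is maternally supplied and acts with Nodal signalling, was the highest in KO against WT, with 13.6 and 5.33 FPKM (0.73), and the lowest in KO_FL against KO, with 2.93 against 5.33 (-0.97). In that comparison 2 were at least 2-fold higher, tbx16 (1.62) and noto, of the notochord (1.39), beside 4.66% of all tested genes. None was lower, beside 3.16%, and the median was 0.67. In KO_dN against KO none of the 6 was past 2-fold, beside 2.51% of all tested genes higher and 1.87% lower, and the median was 0.00.

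**Figure D4:**
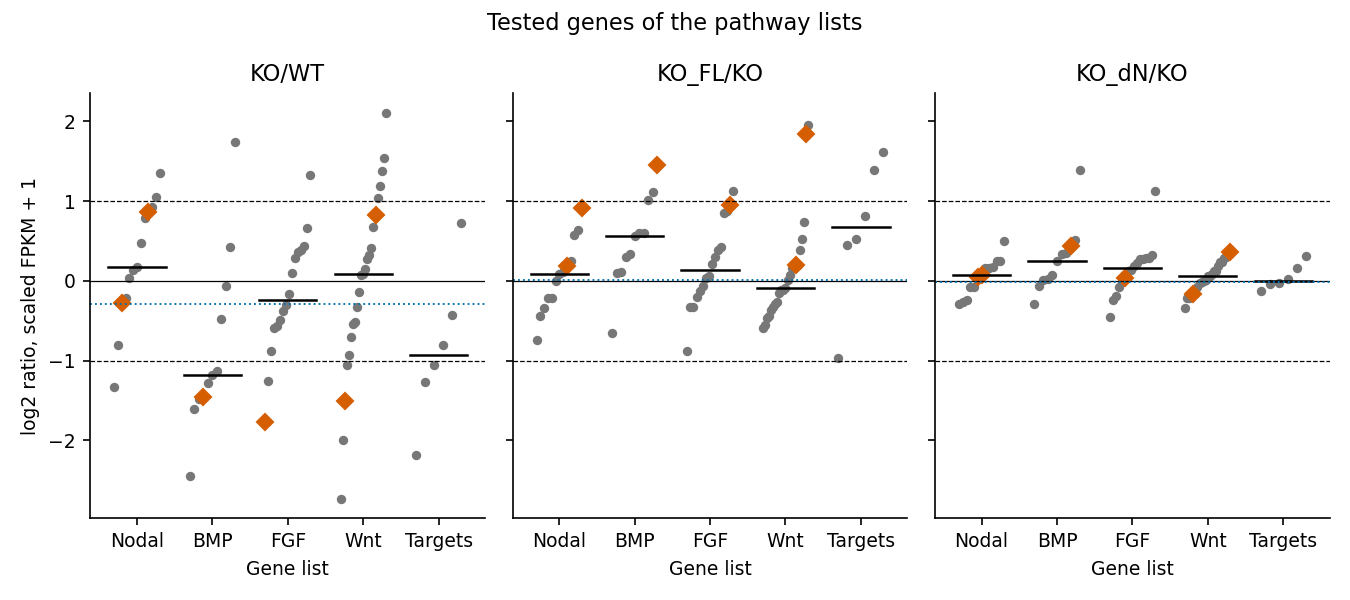
Log2 ratio of scaled FPKM (pseudocount 1) of each tested gene of the Nodal, BMP, FGF and Wnt lists and of downstream transcription factors (Targets), in 3 comparisons. Orange diamonds are the 6 genes, grey dots the others, bars the list medians, the dotted line the median of all tested genes and dashed lines 2-fold; the BMP list has its median at -1.17 in KO/WT, and in KO_dN/KO all list medians lie between 0.00 and 0.25.

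Summed levels of markers of the outer and yolk cell layers were, once scaled by median of ratios, lower in KO and KO_dN than in WT and KO_FL. Of 11 enveloping layer markers 10 were tested. In KO against WT 4 were at least 2-fold lower, beside 20.3% of all tested genes, and 1 higher, beside 9.37%. In KO_FL against KO 5 were at least 2-fold higher, beside 4.66%, and the keratin gene krt8 had the highest ratio (2.18). Another keratin gene, krt92, was the higher one in KO against WT (1.25) and had the lowest ratio of KO_FL to KO (-0.78). Their summed level was 343.6 FPKM in WT against 41.6 in KO, with 91.4 in KO_FL and 23.6 in KO_dN, or 101.1, 57.0, 101.3 and 52.9 scaled. Of 6 yolk syncytial layer markers 4 were tested. Beside the same shares, 2 were lower in KO against WT and 3 higher in KO_FL against KO. Their summed scaled level was 128.3, 114.9, 164.5 and 97.0 in WT, KO, KO_FL and KO_dN. With TPM scaling this yolk layer sum was instead lowest in WT, so its order depended on the scale. The most abundant of these markers, ctsla, stood at -0.02 in KO against WT. With a mean of 155.8 FPKM over the groups, it made up most of the yolk layer sum, which therefore says little about the other markers. No defining marker tested was at 0 in any group. The part of these cell layers in the values of the signalling genes was not tested.

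The genes nearest to each of the 6 in level over all 4 groups were found by Euclidean distance in log2(scaled FPKM + 1), among 5976 tested genes with a symbol. For WNT8A these were NOTUM (distance 0.52), krt4 (0.62) and EFNA1 (0.63), and for chrd they were histh1l1 (0.28) and SLC16A1 (0.29). FGF8 lay nearest to ATP1B1 (0.20), si:dkey-16m19.4 (0.31) and SLC43A2 (0.33). The maternally supplied members had other neighbours: hnrnpa1a (0.17), zgc:114046 (0.42) and SLC25A3 (0.50) for gdf3, hnrnpl2 (0.22), zgc:173552 (0.30) and PABPN1 (0.34) for CTNNB1, and stard14 (0.21), sdc4 (0.35) and CWC15 (0.48) for tdgf1. NOTUM had 6.72 FPKM in WT, 0.25 in KO, then 3.47 in KO_FL and 0.41 in KO_dN. Among the 6 themselves the closest pairs were chrd and WNT8A (1.22) and WNT8A and FGF8 (1.25), and the farthest was gdf3 and FGF8 (8.67). tdgf1 lay nearer to chrd (1.82) than to the maternally supplied CTNNB1 (2.05) and gdf3 (4.82). The distance takes in the level of a gene as well as its differences between groups.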

How the data were processed

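Ribosome footprints were sequenced from 8 samples of whole zebrafish embryos in 4 groups. Per the labels' protocols, cycloheximide-treated embryos were lysed, digested with RNase I, depleted of ribosomal RNA and size-selected on a gel. The authors deposited FPKM, 1 value per gene and group, read here as a mean of both replicates from a note in the series design text. Tools in the submitters' processing notes are Cufflinks 2.2.1, TopHat2 2.1.1, Bowtie, Trimmomatic 0.36 and cutadapt 1.13, with the build Zv9; the sources used here give no settings.

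The files held 33737 identifiers. Of these, 101 on several lines of the WT file and 3 absent from it were left out, none of them a gene reported on, which left 33633. The WT file also differs in layout, and the series design text does not name WT. A table of gene names gave symbols to 21863 identifiers.

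Scaling was by median of ratios, over the genes with 1 FPKM or more in every group. Ratios used a pseudocount of 1 FPKM, and understate the change of low genes. Genes with a mean of at least 1 FPKM over the groups were tested against a 2-fold limit. Between KO, KO_FL and KO_dN, the 4 commonest log2 ratios (bins of 0.02) held 16.0 to 16.2% of the genes under 0.1 FPKM in both groups of a pair, so low values keep steps of few reads, but read numbers are unknown and no interval can be given. Genes of the pathway lists were named as the highest and lowest ratio of KO/WT, KO_FL/KO, KO_dN/KO and KO_FL/KO_dN and the highest mean level per role; others named were chosen after their values were seen. Some genes that this rule or the search for similar levels picked are not reported here. The members and lists were chosen with earlier results of these data known. Computation used Python 3.11.15, numpy 2.4.6 and pandas 2.3.3. The scaling code was run on simulated data in which equal numbers of genes were raised and lowered in KO. The deposited values are not balanced in this way, so that run cannot show whether the scaling is right for them.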

Additional observations from a re-analysis of the deposited data

How the results depend on the processing

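The counts of the 6 genes at least 2-fold apart depended on the scale and the pseudocount; 8 other settings were run and, without WT, 1 more chosen after seeing the data. Brackets hold the share of all tested genes past 2-fold in that direction under the same setting. As deposited the counts were 6 lower in KO/WT (83.1%), 4 lower in KO_FL/WT (79.3%) and 6 lower in KO_dN/WT (90.2%). KO_FL/KO_dN had 6 higher (19.2%). On that scale gdf3 turned to -0.83 and CTNNB1 to -0.76 in KO_FL/WT. With a pseudocount of 5 the count was 0 in KO/WT (4.22% higher, 7.14% lower), KO_FL/WT (3.82%, 5.27%) and KO_dN/WT (4.51%, 7.46%). It was also 0 in KO_FL/KO (2.40%, 1.22%) and KO_FL/KO_dN (2.26%, 1.66%). With 0.1 it was 4 in KO_FL/KO, all higher (9.44%). With TPM it was 5 in KO/WT, 2 higher (11.8%) and 3 lower (14.4%), and 4 in KO_FL/KO, all higher (5.86%). KO_dN/WT then had 2 higher (15.1%) and 1 lower (12.8%). Scaled without the 50 highest genes it was 0 in KO_FL/WT (7.29% higher, 18.02% lower). With scaling genes at 5 FPKM or more it was 1 in KO_FL/WT, lower (23.4%), and 1 in KO_FL/KO_dN, higher (3.56%). Without WT in scaling and filter it was 1 in KO_FL/KO_dN, higher (5.55%). The other counts stayed within 1.5 times, 0 in KO_dN/KO throughout (0.67 to 5.34% higher and 0.50 to 6.00% lower over the settings). Of 303 single ratios under an alternative, 242 kept direction and side of 2-fold, 59 did not and 2 reversed after a call. Dropping the filter cannot change a single ratio. No member was on several lines, so summing those lines hardly could. The 242 include the ratios under those settings and so overstate how stable the ratios were. WNT8A, chrd, FGF8 and tdgf1 were above 0 in KO_FL/KO and KO_FL/KO_dN under the settings run, at 0.28 or more, with FGF8 left out by the filter without WT. Scaling took the median of all tested genes in KO/WT from -1.94 to -0.30. With 1 value per group no replicate could be left out. No paired analysis was possible because each deposited column joins both replicates. The cause of these shifts was not tested.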

Other observations

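Several ligands and early regulators of the same pathways lay under the mean of 1 FPKM and were named after their values were seen. ndr1, a Nodal ligand that pairs with Gdf3, had 1.51 FPKM in WT against 0.35 in KO, with 1.15 in KO_FL and 0.33 in KO_dN. dharma, an organizer homeobox gene switched on by maternal β-catenin, had 0.10 FPKM in WT, 0.34 in KO, then 0.78 in KO_FL and 0.33 in KO_dN, with WT the lowest also before scaling. hwa, a maternal gene needed for the dorsal organizer, had 0.50 FPKM in WT and 0.017 to 0.038 in the mutant groups. GATA5, of the endoderm, had 1.43 FPKM in WT against 0.010 in KO, with 0.25 in KO_FL and 0.013 in KO_dN. WNT3A was listed at 0 outside WT, where it had 0.19 FPKM, and fgf24 had 0.24 FPKM in WT, was listed at 0 in KO and had 0.082 in KO_FL and 0.021 in KO_dN. These levels are low enough that few reads may lie behind them.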
